A study of Mus musculus with 6 samples.

Results

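Genes of the lung epithelium were read from the count table of mouse thyroid organoids: Sftpa1, Sftpb, Sftpc, Sftpd, Abca3, Napsa, Lamp3, Scgb3a2, Cldn18 and Ager. They are 10 of 25239 listed genes, were taken from the table by symbol, as a list put together with earlier results of these data known, and all 10 were found in the table. A filter on low counts left 15256 genes for testing, 9 of the 10 among them. Lamp3 was not tested, with 3 to 13 counts per library.

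The RNA came from follicle-enriched organoids grown from G4 RosaLuc mouse embryonic stem cells. In this line doxycycline switches on the transcription factors Nkx2-1 and Pax8 from a TRE transgene, and the bovine Tg promoter (bTg) drives a Braf V637E-ERT2 fusion, which becomes active when 4-hydroxytamoxifen (4OHT) is added. Bulk RNA-seq was done at day 31, with 2 libraries in each of 3 groups. All 6 libraries share the transgenes, the doxycycline pulse and 8-Br-cAMP, so none shows organoids without Nkx2-1 induction. By the protocol of the study, doxycycline was given before the maturation with 8-Br-cAMP, so its pulse had ended before day 31. The cAMP group received neither 4OHT nor inhibitors, and the methods of the study give its controls the ethanol in which 4OHT was dissolved. The 4OHT group received 1 µM 4OHT for 5 days. The PD+LY group received 1 µM 4OHT with 250 nM PD0325901, a MEK inhibitor, and 5 µM LY204002, a PI3K inhibitor, for 3 days. The drug experiments of the study began with 4 days of 4OHT before the inhibitors, so the total time in 4OHT may differ between the last 2 groups. Each library pooled at least 3 wells, and no source used here says that the duplicates were separate differentiations. The p values therefore measure only the spread between these libraries. No group received the inhibitors without 4OHT.

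The libraries held 14898409 to 20637959 counts, and levels are given as CPM, the counts scaled to a common library size with TMM factors. A single count stood for 0.0486 to 0.0667 CPM. The floor of 3 counts lay at 0.146 to 0.200 CPM and covers counting error only. The cell type label is embryonic stem cells. All 10 stem cell markers examined, Pou5f1 and Nanog among them, were above the floor in every library, with a summed level of 3602 to 3689 CPM in the cAMP libraries, 4139 to 4302 CPM with 4OHT and 4401 to 4698 CPM with PD+LY, beside 593 to 2050 CPM for 14 thyroid genes. Within PD+LY the libraries stood further apart than in the other groups: Tg, the thyroid hormone precursor, was at 1870 CPM in PD+LY library 1 and 907 CPM in PD+LY library 2.

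NKX2-1 is a homeodomain transcription factor of the thyroid, the lung and the ventral forebrain. In the lung it is needed for the epithelium to form, and with FOXA factors it binds the promoters of surfactant protein genes. Alveolar type 2 (AT2) cells make surfactant, a film of lipids and proteins that they store in lamellar bodies, while flat alveolar type 1 (AT1) cells carry gas exchange. Thyroid and lung cells share this factor, while many of its target genes differ between them.

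The promoters of 4 members are printed, with matches to the letters of NKX2-1 and other factors marked. No promoter was at hand for Sftpc, Sftpd, Napsa or Scgb3a2. A relation of these letters to the changes was not tested. The lines give the 250 bases upstream of the start site, from RefSeq on GRCm38.p6 (mm10), all on the plus strand. For Abca3, Sftpa1 and Ager these start sites differ from the gene starts given below, which are from GENCODE. Capitals mark CTCAAG (the core of an NKX2-1 site), TGTTTAC or TGTTTGC (forkhead factors such as FOXA, here as the reverse complement) and CCGGAA (ETS factors). TTGCNNAA (C/EBP) was searched too, on both strands as for the others. Sftpb is from chr6:72304360-72304609, Sftpa1 from chr14:41131538-41131787, Abca3 from chr17:24351773-24352022 and Ager from chr17:34597600-34597849.
Sftpb: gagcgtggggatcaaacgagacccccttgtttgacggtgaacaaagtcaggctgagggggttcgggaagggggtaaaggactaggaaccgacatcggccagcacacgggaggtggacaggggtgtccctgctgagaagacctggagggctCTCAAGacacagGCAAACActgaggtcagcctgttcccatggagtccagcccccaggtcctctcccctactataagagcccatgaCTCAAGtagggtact
Sftpa1: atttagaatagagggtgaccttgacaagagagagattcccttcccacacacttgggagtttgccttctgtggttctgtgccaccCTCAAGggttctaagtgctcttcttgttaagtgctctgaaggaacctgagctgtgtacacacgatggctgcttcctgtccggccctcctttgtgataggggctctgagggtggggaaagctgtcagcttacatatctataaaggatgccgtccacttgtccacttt
Abca3: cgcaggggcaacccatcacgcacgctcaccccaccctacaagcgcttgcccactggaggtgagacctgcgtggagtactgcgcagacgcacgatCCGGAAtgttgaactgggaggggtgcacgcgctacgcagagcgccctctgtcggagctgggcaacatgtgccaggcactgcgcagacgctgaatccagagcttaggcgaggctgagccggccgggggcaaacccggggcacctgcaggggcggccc
Ager: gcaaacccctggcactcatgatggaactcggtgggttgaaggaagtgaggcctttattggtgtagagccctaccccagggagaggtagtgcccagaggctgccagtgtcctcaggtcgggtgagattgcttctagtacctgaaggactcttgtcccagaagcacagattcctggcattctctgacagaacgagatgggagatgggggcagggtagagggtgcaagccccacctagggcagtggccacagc

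The Sftpb window held CTCAAG at -100 to -95 and again at -15 to -10 from the start site, with a forkhead match between them at -88 to -82. The Sftpa1 window held CTCAAG at -166 to -161. The Abca3 window held an ETS match at -156 to -151 and the Ager window none of the letters searched. Of 6 members with a promoter in the table, Lamp3 had a forkhead match at -92 to -86 and both start sites of Cldn18 had one, at -211 to -205 and at -8 to -2. Among 32536 different promoter windows of the same length, 13.3% held CTCAAG, 7.31% a forkhead match, 12.1% the ETS letters and 9.57% the C/EBP letters. Such matches describe the letters and do not show binding.

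Nkx2-1 itself was at 13.8 and 13.3 CPM in cAMP, 9.54 and 13.8 CPM in 4OHT and 15.1 and 11.1 CPM in PD+LY. The groups overlapped. Its log2 fold change was -0.21 (SE 0.21, adjusted p = 0.595) for the 4OHT group against cAMP. For PD+LY it was 0.16 relative to 4OHT (SE 0.21, adjusted p = 0.615) and -0.048 relative to cAMP (SE 0.21, adjusted p = 0.89). The deposited counts do not separate transgenic from endogenous Nkx2-1 reads. All adjusted p values given here are from edgeR's quasi-likelihood test with Benjamini-Hochberg adjustment over the 15256 genes.

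Per kilobase of exon, Sftpb was the most abundant member in cAMP at 88.0 ± 4.46 CPM per kb (SD, n = 2), followed by Napsa at 21.1 ± 1.95, Ager at 13.6 ± 0.535 and Abca3 at 6.50 ± 0.283. Sftpc (3.66 ± 2.65), Scgb3a2 (2.33 ± 0.242) and Sftpd (1.75 ± 0.394) came next on this scale, and Sftpa1 (0.519 ± 0.0117), Cldn18 (0.199 ± 0.0182) and Lamp3 (0.151 ± 0.0540) were lowest. Abca3 and Sftpc, Sftpc and Scgb3a2, Sftpc and Sftpd, Scgb3a2 and Sftpd, and Cldn18 and Lamp3 did not differ beyond their SDs. Nkx2-1 lay at 4.77 and Tg at 146 CPM per kb in cAMP. In AT2 cells Sftpc is among the most abundant mRNAs, whereas here it had 0 to 91 counts per library.

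**Figure D1:**
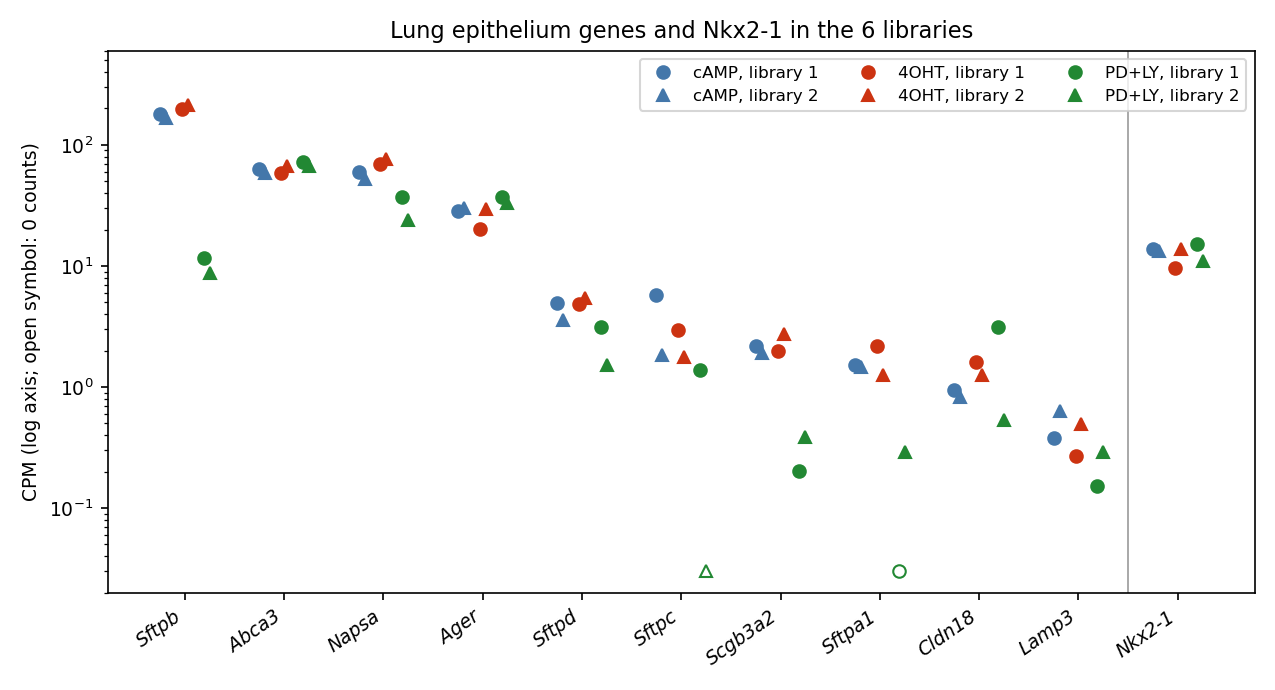
CPM (log axis) of the 10 lung epithelium genes and of Nkx2-1 in the 6 libraries, 1 symbol per library, with circles for library 1, triangles for library 2 and colours for the groups. Sftpb lay between 167 and 215 CPM in the cAMP and 4OHT libraries and at 11.7 and 8.71 CPM in PD+LY. Open symbols stand for 0 counts.

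Activation of Braf V637E by 4OHT left the lung genes without a call. Of the 9 tested members, 0 were differentially expressed genes (DEGs, which needed a 2-fold change and an adjusted p under 0.05) in 4OHT against cAMP, and 0 passed the adjusted p alone. In a fit of only these groups Sftpb (0.26, adjusted p = 0.047) and Napsa (0.39, adjusted p = 0.0235) passed the adjusted p, both under 2-fold. Napsa did so too with no filter on low counts (adjusted p = 0.0359) and without PD+LY library 1 (adjusted p = 0.0251) or PD+LY library 2 (adjusted p = 0.0256). Among all tested genes 2.67% were DEGs, 1.17% higher and 1.51% lower. At an unadjusted p under 0.05 edgeR gave 1, Napsa, and DESeq2 also called 0 DEGs. The median log2 fold change of the members was 0.22, beside -0.0021 over all tested genes. Sftpb, Napsa and Cldn18 were higher in both 4OHT libraries than in both cAMP libraries, without being called, and the other 7 overlapped. These 3 of 9 tested members compare with 29.1% of all tested genes that were higher in this way. The log2 fold changes were 0.25 for Sftpb (SE 0.12, adjusted p = 0.211) and 0.38 for Napsa (SE 0.17, adjusted p = 0.199), and 0.69 for Cldn18 (SE 0.68, adjusted p = 0.587).

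Calls among the lung genes were made once MEK and PI3K were inhibited. Relative to 4OHT, 5 of the 9 tested members fell and 0 rose in PD+LY, with 4.90% of all tested genes called lower and 2.35% called higher. Those that fell were Sftpa1, Sftpb, Sftpd, Napsa and Scgb3a2, whereas Sftpc, Abca3, Cldn18 and Ager were not called. The median over the 9 was -1.27 on the log2 scale, beside 0.0077 over all tested genes. Relative to cAMP, 3 of 9 fell (Sftpa1, Sftpb and Scgb3a2) and 0 rose, where 6.24% of all tested genes were called lower and 3.00% higher. The median was -0.89 there, beside 0.0049 over all tested genes. Both comparisons use the same PD+LY libraries. Leaving out 1 library in turn gave 3 to 6 called members in each of these comparisons. In bulk samples fewer cells of a type and less RNA per cell cannot be told apart.

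Sftpb encodes surfactant protein B, the small hydrophobic protein without which surfactant does not spread at birth. The gene lies on chromosome 6 (72304610-72314371, plus strand). It had 2852 and 3426 counts in cAMP, 2954 and 3916 in 4OHT, and 230 and 179 in PD+LY. All PD+LY values were far below all others. On the CPM scale the mean was 173 ± 8.78 for the cAMP group, 206 ± 12.5 for 4OHT and 10.2 ± 2.13 for PD+LY (SD, n = 2 each). Sftpb fell 20.2-fold in PD+LY against 4OHT (log2 fold change -4.34, SE 0.14, adjusted p = 1.6e-08) and 17.0-fold against cAMP (-4.08, SE 0.14, adjusted p = 1.49e-08). Ordered by log2 fold change from the most negative, it was number 4 relative to 4OHT and number 11 relative to cAMP, of 12224 genes that averaged 50 counts or more. With any library left out, the log2 fold change against 4OHT stayed between -4.56 and -4.13. Sftpb made up 51.8 to 54.8% of the counts of all 10 members in the cAMP and 4OHT libraries, and 7.05 and 6.43% in the PD+LY libraries.

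Sftpa1 and Sftpd encode the collectins of surfactant, which bind microbes in the airspace. Sftpa1 (chromosome 14, 41131782-41136452, plus strand) had 24 and 30 counts in cAMP, 33 and 23 in 4OHT, and 0 and 6 in PD+LY. The PD+LY libraries were lowest, at counts near the floor. Sftpa1 fell by 3.47 on the log2 scale against 4OHT (SE 0.78, adjusted p = 0.00811) and by 3.26 against cAMP (SE 0.78, adjusted p = 0.00978). Without 4OHT library 1 the former was -3.03 with an adjusted p of 0.0689. Without PD+LY library 1 the changes were -2.53 (adjusted p = 0.026) and -2.32 (adjusted p = 0.0312). Without PD+LY library 2 they rest on a library with 0 counts, which lay at least 11.3-fold below the 4OHT mean and at least 9.72-fold below the cAMP mean, taking 3 counts in that library as the floor. Sftpd (chromosome 14, 41172214-41185149, minus strand) had 78 and 73 counts in cAMP, 73 and 100 in 4OHT, and 62 and 31 in PD+LY. It was lowest in PD+LY on the CPM scale, at 3.16 and 1.51 CPM beside 4.87 and 5.49 CPM in 4OHT and 4.91 and 3.56 CPM in cAMP. Sftpd fell by 1.16 against 4OHT (SE 0.34, adjusted p = 0.0307), a call lost without 4OHT library 1 (adjusted p = 0.0898), without 4OHT library 2 (adjusted p = 0.172) or without PD+LY library 2 (-0.71, adjusted p = 0.12). Without PD+LY library 1 it was -1.78 (adjusted p = 0.00498). Against cAMP its log2 fold change was -0.85 (SE 0.35, adjusted p = 0.0908), and -1.47 (adjusted p = 0.0108) without PD+LY library 1.

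Sftpc encodes surfactant protein C, a lipopeptide made in AT2 cells. The gene (chromosome 14, 70520949-70524081, minus strand) had 91 and 38 counts in cAMP, 44 and 32 in 4OHT, and 27 and 0 in PD+LY. Duplicates of a group differed by up to 3.09-fold where both had counts, and both PD+LY libraries were below the rest. The log2 fold change was -1.77 against 4OHT (SE 0.87, adjusted p = 0.164) and -2.45 against cAMP (SE 0.84, adjusted p = 0.0511), so Sftpc was not called. It passed with no filter on low counts (adjusted p = 0.000265 and 2.23e-08), at nearly the same log2 fold changes (-1.76 and -2.44). That fit lowered the adjusted p of Sftpb as well, to 1.71e-230 against 4OHT, so its p values are not comparable with the others. Without PD+LY library 1 the Sftpc changes were -8.39 and -9.07, resting on the library with 0 counts. Without PD+LY library 2 they were -0.75 and -1.42. Against cAMP the change was -3.05 without cAMP library 2 and -1.44 without cAMP library 1. PD+LY library 2, with 0 counts, was at least 16.1-fold lower than the 4OHT mean and at least 26.0-fold lower than the cAMP mean, taking the floor of 3 counts in that library.

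**Figure D2:**
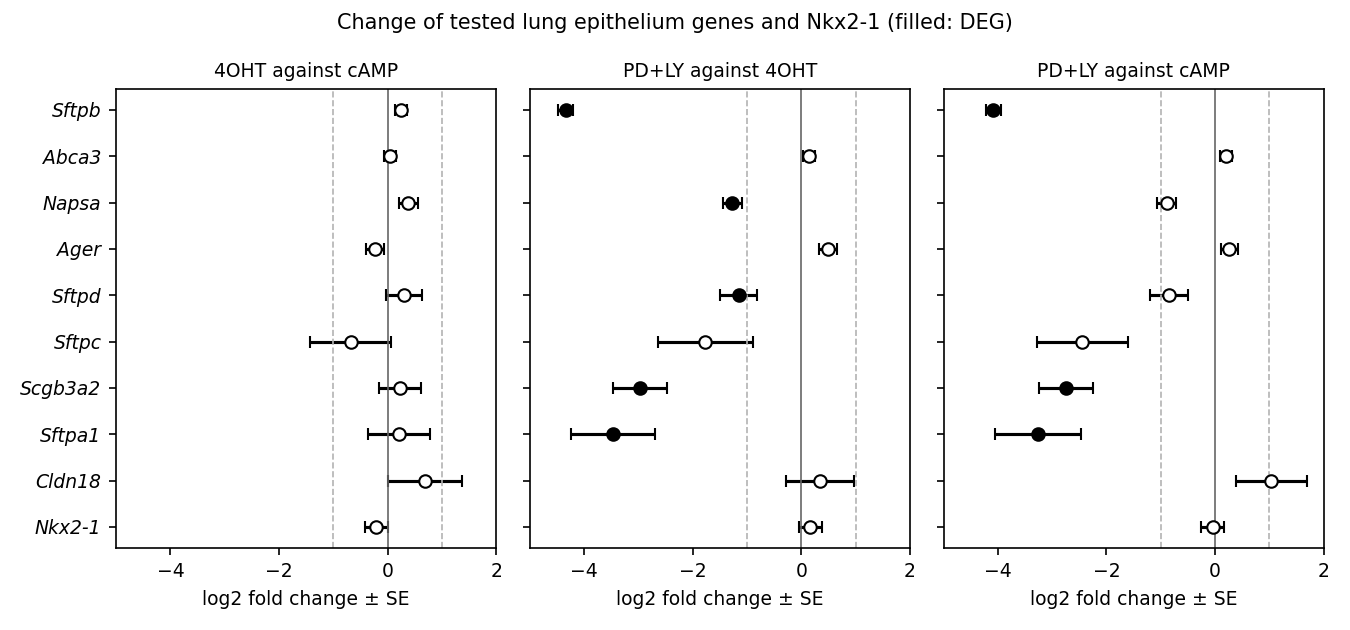
Log2 fold change (points, bars ± SE) of the 9 tested lung epithelium genes and Nkx2-1 in the 3 comparisons, with filled points for DEGs and dashed lines at a 2-fold change. In the middle panel, Sftpb (-4.34), Sftpa1, Scgb3a2, Napsa and Sftpd are filled, while Abca3, Ager, Cldn18 and Nkx2-1 lie between 0.15 and 0.49.

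The genes that process and load surfactant gave mixed calls. Napsa encodes napsin A, an aspartic protease that cleaves the precursors of surfactant proteins B and C and is also made in kidney tubules. The gene (chromosome 7, 44572380-44586862, plus strand) had 59.9 and 52.5 CPM in cAMP, 69.1 and 77.0 CPM in 4OHT, and 36.9 and 23.8 CPM in PD+LY. The 3 groups did not overlap, with PD+LY lowest and 4OHT highest. Napsa fell 2.41-fold against 4OHT (log2 fold change -1.27, SE 0.18, adjusted p = 0.000467). Without PD+LY library 2 the change was -0.98 (adjusted p = 0.00035), short of 2-fold. Against cAMP it fell by 0.89 on the log2 scale (SE 0.17, adjusted p = 0.00317), past the adjusted p but under 2-fold, and by 1.24 (adjusted p = 5.37e-05) without PD+LY library 1. The reads were counted without strand, and 18.9% of the exon bases of Napsa overlap Gm15396 on the opposite strand.

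Abca3 encodes the transporter that pumps phospholipid into lamellar bodies. The gene (chromosome 17, 24351950-24410201, plus strand) had 62.8 and 59.0 CPM in cAMP, 59.2 and 66.5 CPM in 4OHT, and 72.4 and 66.9 CPM in PD+LY. The PD+LY libraries were slightly above the rest. The log2 fold change was 0.15 against 4OHT (SE 0.11, adjusted p = 0.358) and 0.19 against cAMP (SE 0.11, adjusted p = 0.218). D330041H03Rik overlaps 9.75% of its exon bases on the opposite strand. Lamp3, a lysosomal membrane protein of lamellar bodies and of mature dendritic cells, lies on chromosome 16 (19653378-19706375, minus strand). It had 6 and 13 counts in cAMP, 4 and 9 in 4OHT, and 3 and 6 in PD+LY. These are at or little above the floor, and a difference was not tested. On the CPM scale both PD+LY libraries (0.153 and 0.292) lay below both cAMP libraries (0.377 and 0.634).

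Ager encodes RAGE, a receptor of the immunoglobulin family at the base of AT1 cells. The gene (chromosome 17, 34597862-34600936, plus strand) had 28.3 and 29.9 CPM in cAMP, 20.4 and 29.4 CPM in 4OHT, and 37.2 and 32.8 CPM in PD+LY. Both PD+LY values were above all others. The log2 fold change was 0.49 against 4OHT (SE 0.17, adjusted p = 0.0518, and 0.0449 by DESeq2, under 2-fold with both) and 0.27 against cAMP (SE 0.16, adjusted p = 0.263). Against 4OHT it also passed the adjusted p, under 2-fold, with the replicate block (0.50, adjusted p = 0.0136) and with no filter on low counts (0.50, adjusted p = 0.00671). With a library left out it ran from 0.26 to 0.79. Cldn18 encodes a claudin of alveolar tight junctions, with another isoform in the stomach. The gene (chromosome 9, 99689461-99717267, minus strand) had 15 and 17 counts in cAMP, 24 and 23 in 4OHT, and 61 and 11 in PD+LY. The PD+LY libraries fell on either side of all others and differed 5.81-fold in CPM. The log2 fold change against 4OHT was 0.35 (SE 0.63, adjusted p = 0.727), and -1.40 without PD+LY library 1. Against cAMP it was 1.03 (SE 0.66, adjusted p = 0.276), -0.71 without PD+LY library 1 and 1.81 (adjusted p = 0.0149) without PD+LY library 2.

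Scgb3a2 encodes a small secretoglobin of the airway lining, and its promoter is a known target of NKX2-1. The gene (chromosome 18, 43764289-43767399, plus strand) had 35 and 39 counts in cAMP, 30 and 50 in 4OHT, and 4 and 8 in PD+LY. The PD+LY libraries were below all others. Scgb3a2 fell 7.84-fold against 4OHT (log2 fold change -2.97, SE 0.49, adjusted p = 0.00134) and 6.73-fold against cAMP (-2.75, SE 0.49, adjusted p = 0.00177).

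The members stood in another order in PD+LY. Per kilobase of exon, Ager (16.3 ± 1.44 CPM per kb), Napsa (11.4 ± 3.48) and Abca3 (7.43 ± 0.412) lay above Sftpb (5.19 ± 1.08), which had been the highest in cAMP and, at 105 ± 6.37 CPM per kb, in 4OHT. With the longest transcript as the length, Napsa came out at 19.5 CPM per kb and Ager at 18.7 in PD+LY, so the order of these is not settled.

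Other genes of the lung were examined by list. The counts of each list here and below stand beside these shares of all tested genes. In 4OHT against cAMP 1.17% were called higher and 1.51% lower. For PD+LY, 2.35% were called higher and 4.90% lower relative to 4OHT, and 3.00% higher and 6.24% lower relative to cAMP. Of 16 further genes of AT2 cells and surfactant handling, 15 were tested: 0 were DEGs in 4OHT against cAMP (1 passed the adjusted p, under 2-fold, and 3 an unadjusted p under 0.05). For PD+LY, 5 fell and 0 rose relative to 4OHT, and 6 fell and 0 rose relative to cAMP. The median log2 fold changes in this order were -0.10, -0.83 and -0.80. Slc34a2, the sodium phosphate transporter of AT2 cells, fell 6.84-fold against 4OHT (log2 fold change -2.77, SE 0.22, adjusted p = 1.11e-05), from 17.9 and 20.3 CPM to 3.41 and 2.19 CPM, and 8.41-fold against cAMP (adjusted p = 2.52e-06). Cxcl15, a chemokine made in the lung, had 50 and 36 counts in cAMP, 43 and 66 in 4OHT, and 1 and 0 in PD+LY. The fitted fall in PD+LY against 4OHT was 103-fold (log2 fold change -6.68, SE 0.76, adjusted p = 0.000132). From counts pooled within each group, Cxcl15 was 132-fold lower, with a 95% counting interval of 23.2 to 5257. This interval leaves out the spread between libraries. The other DEGs of the list were Lyz2, the lysozyme of AT2 and myeloid cells (-3.44 against 4OHT, adjusted p = 0.0185, with 0 and 4 counts in PD+LY), Chil1 (-1.29, adjusted p = 0.000108) and the cytokine Il33 (-1.05, adjusted p = 0.00657). Mfsd2a and Acsl4, which handle fatty acids, fell against cAMP (-1.76, adjusted p = 0.00949, and -1.31, adjusted p = 0.000202), as did Slc34a2, Cxcl15, Lyz2 and Il33.

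Of 12 further AT1 genes, all tested, 0 were DEGs in 4OHT against cAMP, where 2 passed an unadjusted p under 0.05. For PD+LY, 3 fell relative to 4OHT and 1 relative to cAMP, where 4.90% and 6.24% of all tested genes were called lower. The medians of the 3 comparisons were 0.09, -0.24 and -0.20. The 3 were the water channel gene Aqp5 (-1.05, adjusted p = 0.000512), the homeodomain gene Hopx (-1.11, adjusted p = 0.000299) and Spock2 (-1.31, adjusted p = 4.53e-05), and Spock2 fell against cAMP too (-1.19, adjusted p = 5.07e-05).

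Of 14 airway genes 12 were tested. In 4OHT against cAMP 2 rose and 0 fell: the goblet cell mucin gene Muc5ac (3.11, adjusted p = 0.00561), from 5 and 6 counts to 30 and 60, and Bpifa1, a secreted protein of the upper airway (1.89, adjusted p = 0.000291), from 93 and 116 counts to 296 and 414. From 4OHT to PD+LY 4 fell and 0 rose: Muc5ac (-3.88, adjusted p = 0.000772), Bpifa1 (-3.08, adjusted p = 6.76e-06), the basal cell keratin gene Krt5 (-2.17, adjusted p = 5.55e-05) and Reg3g (-1.36, adjusted p = 0.00922). Relative to cAMP 3 fell in PD+LY: Krt5 (-1.99), Bpifa1 (-1.19) and Gabrp (-1.17, adjusted p = 0.00838). The medians of the list were -0.076, -0.94 and -0.75.

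**Figure D3:**
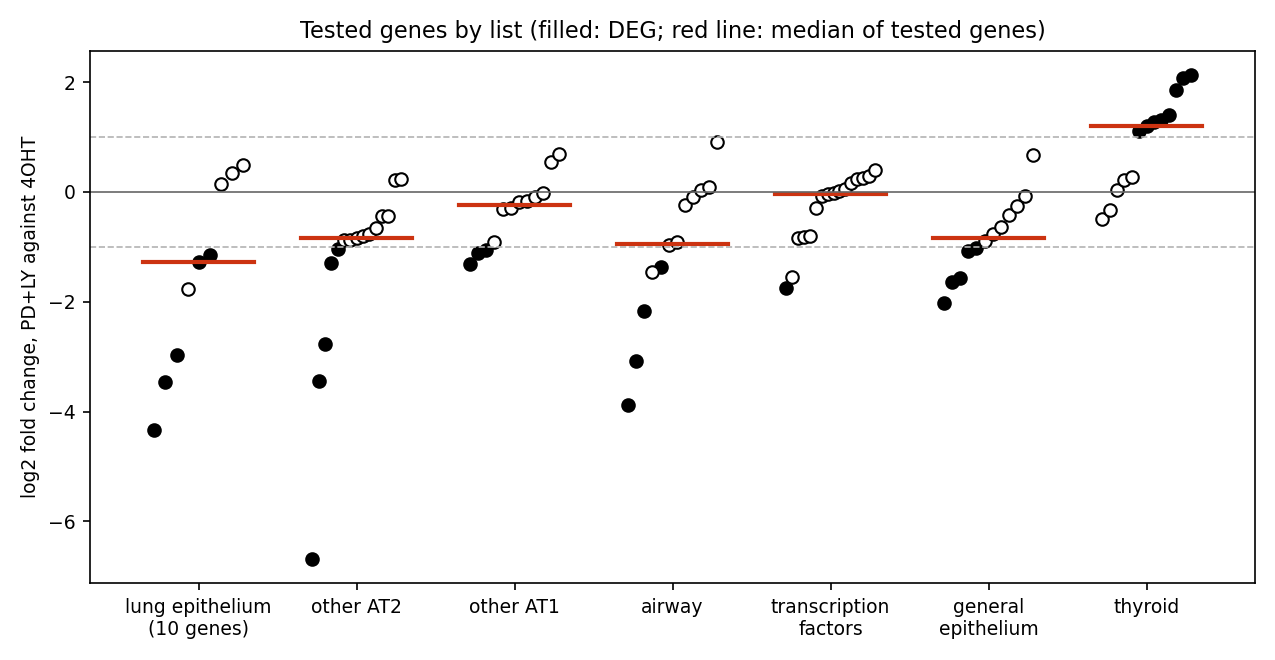
Log2 fold change of each tested gene in PD+LY against 4OHT, grouped by list, with filled points for DEGs, a red line at the median of the tested genes and dashed lines at a 2-fold change. The lung members (median -1.27) spread from Sftpb at -4.34 to Ager at 0.49, and the thyroid genes (median 1.20) lie mostly above 0. The lowest point among other AT2 genes is Cxcl15, whose fitted value rests on 1 count in PD+LY.

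Transcription factors of the lung made up another list, with Nkx2-1 and Wnt7b included. Of 16 tested, 0 rose and 1 fell in 4OHT against cAMP, beside 1.17% and 1.51% of all tested genes. For PD+LY 1 fell relative to 4OHT and 2 relative to cAMP, where 4.90% and 6.24% of all tested genes were called lower. The medians of the 3 comparisons were -0.12, -0.032 and -0.39. By the adjusted p alone, DEGs included, 2 were higher and 4 lower in 4OHT against cAMP. In PD+LY 0 were higher and 4 lower relative to 4OHT, and 0 higher and 6 lower relative to cAMP. Over all 15256 tested genes 1280, 3469 and 3925 passed the adjusted p in the 3 comparisons. Foxp1 fell in 4OHT (-1.09, adjusted p = 0.00213) and was lower in PD+LY than in cAMP (-1.05, adjusted p = 0.000603). Cebpd, a C/EBP factor, fell in PD+LY against 4OHT (-1.75, adjusted p = 0.000389) and against cAMP (-1.04, adjusted p = 0.00778). Foxa1 and Foxa2, the forkhead partners of NKX2-1, were not called in any comparison.

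The 13 tested thyroid genes of 14 had medians of -0.78, 1.20 and 0.30 in the 3 comparisons. In 4OHT 2 fell, and in PD+LY 8 rose against 4OHT and 3 against cAMP, with 0 falling. Between 4OHT and PD+LY, then, 0 of 9 lung members and 8 of 13 thyroid genes rose, and 5 of 9 and 0 of 13 fell.

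General epithelial genes moved in the same comparisons. Of 12 tested, 1 rose and 2 fell in 4OHT against cAMP. For PD+LY 5 fell relative to 4OHT and 6 relative to cAMP, and the medians of the 3 comparisons were -0.18, -0.83 and -1.003. Their summed level was 1232 to 1346 CPM in the cAMP libraries, 944 to 1070 CPM with 4OHT and 841 to 884 CPM with PD+LY. The part of epithelial content in the results for the lung genes was not tested. Markers of other tissues that use some members were read as well. Stomach genes summed to 12.5 to 19.7 CPM in the cAMP libraries, 12.5 to 18.0 CPM with 4OHT and 5.54 to 6.72 CPM with PD+LY, with Cblif and Atp4b at 0 in every library, and of 6 tested 3 fell in each PD+LY comparison. Dendritic cell and macrophage genes summed to 96.8 to 99.5, 91.2 to 98.6 and 50.9 to 51.5 CPM, with Ptprc and Adgre1 at 0 in every library, and 1 of 5 tested fell, in PD+LY against cAMP. Kidney genes (of the tubule, with the podocyte gene Nphs1) summed to 255 to 338, 182 to 231 and 98.4 to 145 CPM. Of 5 tested 2, 1 and 2 fell in the 3 comparisons. Lrp2 and Cdh16 of this list also belong to a thyroid differentiation score of the study, so these sums do not measure kidney content alone. Ventral forebrain genes summed to 7.39 to 11.2 CPM over all libraries, and 1 of 4 tested fell, in PD+LY against 4OHT. The stem cell list had 0 DEGs in each comparison. Under 2-fold, 3 of its 10 genes passed the adjusted p upward and 0 downward in 4OHT against cAMP, 3 upward and 1 downward from 4OHT to PD+LY, and 6 upward and 1 downward from cAMP to PD+LY (4, 4 and 8 at an unadjusted p under 0.05), with medians of 0.20, 0.09 and 0.28. The part of these cells in the results was not tested either.

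The genes whose pattern was nearest to that of Sftpb were found by Euclidean distance over the 6 libraries, on log2 CPM centred per gene, among 12224 genes. The 5 nearest were Crhbp, which encodes a binding protein of corticotropin-releasing hormone (distance 0.40, Pearson r 0.997), the ERK phosphatase gene Dusp4 (0.84, r 0.985), the matrix metalloproteinase genes Mmp3 (0.97, r 0.982) and Mmp10 (0.99, r 0.987), and Optc, which encodes opticin (1.02, r 0.978). The points share libraries and groups, so these values describe likeness alone. Slc34a2 was number 11 in this order, Napsa number 313 and Sftpd number 367.

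**Figure D4:**
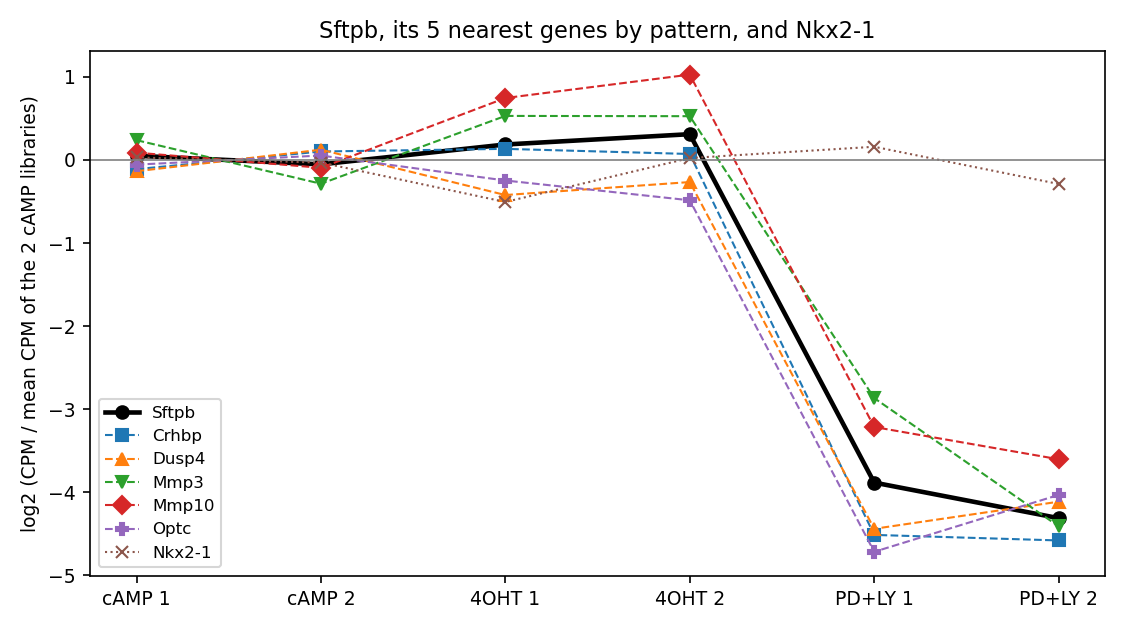
Log2 ratio of CPM to the mean of the 2 cAMP libraries (y axis) in each of the 6 libraries (x axis; lines guide the eye) for Sftpb, its 5 nearest genes by pattern and Nkx2-1. Sftpb and the 5 genes lie low in both PD+LY libraries, where Nkx2-1 was at 15.1 and 11.1 CPM beside 13.8 and 13.3 CPM in cAMP.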

How the data were processed

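Total RNA of the organoids was extracted, and 6 mRNA libraries were sequenced. Per the labels and the methods of the study, the authors made TruSeq Stranded mRNA libraries, trimmed the reads, mapped them to mm10 with HISAT2 and counted them per gene with HTSeq without strand (versions not given in the sources used here). The deposited values are raw counts per gene symbol, whole numbers without normalization, and 5586 of 25239 genes have no counts.

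Low genes were removed with filterByExpr of edgeR 4.0.16 in R 4.3.3 (at default settings, a minimum count of 10 and a minimum total of 15). TMM factors were 0.990 to 1.01. The remaining 15256 genes in 6 libraries were fitted by edgeR in a single quasi-likelihood model of the 3 groups. Adjusted p values are Benjamini-Hochberg values over these genes. DEGs have an adjusted p under 0.05 and a change of at least 2-fold, the thresholds of the study. Fitted on simulated counts for PD+LY against 4OHT (15002 genes), the test found 140 of 140 genes changed 4-fold or 8-fold, with 1 false call. Changed genes averaged at least 50 counts, and the spread was set equal for all genes and groups. Recovery of the simulated 2-fold changes was not tallied. This check therefore does not cover low-count members such as Sftpa1 and Scgb3a2, or the wider spread of PD+LY. Replicates differed beyond sampling noise (chi-square per degree of freedom 8.48 for cAMP, 4.63 for 4OHT and 18.4 for PD+LY), with a common biological coefficient of variation of 0.105.

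Exon lengths, overlaps and positions are from GENCODE M21 (GRCm38, the assembly of mm10), and promoters from RefSeq. Alternatives were DESeq2 1.42.0, RLE size factors, other filters, only the groups compared, the replicate block, no fold threshold and each library left out. The members and gene lists were chosen with earlier results of these data known. Named genes were all members, Nkx2-1, the DEGs of the AT2, AT1, airway and transcription factor lists, and the 5 genes nearest to Sftpb (prior count 2). Others named (Tg, Foxa1, Foxa2, Pou5f1, Nanog, Lrp2, Cdh16, Nphs1, and markers at 0) were chosen after their values were seen.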

Additional observations from a re-analysis of the deposited data

How the results depend on the processing

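Requiring at least 10 counts in every library left 3 of the members called in PD+LY relative to 4OHT and 1 relative to cAMP, since Sftpa1, Sftpc and Scgb3a2 were then not tested. With no fold threshold, 1280, 3469 and 3925 genes passed in the 3 comparisons (4OHT against cAMP, then PD+LY against each of 4OHT and cAMP), in place of 408, 1107 and 1409 DEGs. DESeq2, RLE size factors and a fit of only the groups compared kept every DEG call of a member and of Nkx2-1, though some members under 2-fold crossed the adjusted p of 0.05 (Ager with DESeq2, Sftpb and Napsa with only the groups compared). With no filter, Sftpc was called in both PD+LY comparisons, at nearly the same log2 fold changes as in the main fit.

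With each library left out in turn, the DEGs over all genes numbered 164 to 487 in 4OHT against cAMP (164 without 4OHT library 1, 221 without 4OHT library 2, 268 without cAMP library 1) and 632 to 1176 in PD+LY against 4OHT (632 without 4OHT library 2). The called members numbered 3 to 6 for PD+LY relative to 4OHT (3 without 4OHT library 1 or PD+LY library 2) and 3 to 6 relative to cAMP (6 without PD+LY library 1). Fitted log2 fold changes crossed 0 in this way for genes that were not called. In 4OHT against cAMP they ran from -1.29 to 0.33 for Sftpc, -0.23 to 0.57 for Sftpa1, -0.51 to 0.014 for Ager, -0.50 to 0.027 for Nkx2-1, -0.039 to 0.13 for Abca3 and -0.029 to 0.43 for Scgb3a2. For PD+LY relative to 4OHT they ran from -0.080 to 0.46 for Nkx2-1 and -1.40 to 1.12 for Cldn18, and relative to cAMP from -0.71 to 1.81 for Cldn18 and -0.29 to 0.16 for Nkx2-1. The cause was not tested.

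The replicate numbers paired the libraries weakly at most: deviations of same-numbered libraries correlated at 0.07, 0.21 and 0.06. With the replicate block, 513, 1222 and 1481 genes were DEGs and 0, 6 and 4 members were called, Sftpc being the added member (-2.06, adjusted p = 0.0118, and -2.60, adjusted p = 0.00135).

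With 2 libraries a group, the groups were too small to examine for a single library that stands apart. Low counts, at most 100 per library (Sftpa1, Sftpc, Sftpd, Lamp3, Scgb3a2 and Cldn18) leave wide errors, and levels per kilobase moved with the transcript length chosen.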
